A study of Mus musculus with 9 samples.

Results

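The genes described here encode the respiratory chain and the ATP synthase of mitochondria. They were taken from a table of read counts by name: every gene whose name starts with mt-, Nduf, Cox4, Cox5, Cox6, Cox7, Cox8, Atp5 or Uqcr, with Sdha, Sdhb, Sdhc and Sdhd. The rule found 107 of the 21951 genes of the table. Of these 13 lie in the mitochondrial genome and 94 on nuclear chromosomes: 36 for subunits of complex I, 4 of complex II, 8 of complex III, 20 of complex IV and 18 of complex V, and 8 for the Ndufaf proteins, most of them assembly factors of complex I. The name Atp5o stands for 2 identifiers, of which 1 had 0 counts in every library. A filter on low counts kept 100 members, all 13 mitochondrial and 87 nuclear. The 7 left out were Cox4i2, Cox6b2, Cox7b2, Cox8b, Cox8c, Ndufa4l2 and the Atp5o identifier without counts.

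RNA came from BV2 cells, an immortalised line of wild-type mouse microglia, the macrophages that live in the brain. In the triol-treated group, 10 µM 5α-androst-3β,5α,6β-triol, a man-made steroid, was added 30 min before X-rays were given as 1 dose of 10 Gy. The irradiated group had vehicle (20% HP-β-CD, a cyclodextrin) in its place and the same dose, and the control group had vehicle and no X-rays. Each group held 3 libraries, and all are of 1 cell line. For the triol group no vehicle is named in the labels, and the treatment labels of triol replicates 2 and 3 write 7β and 8β where the titles write 6β. No group had triol alone, and how long after the X-rays RNA was taken is not stated in the labels. They do not say either that replicates were separate cultures, so p-values measure a spread between libraries that may be only technical.

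Electrons from NADH enter the chain at complex I and those from succinate at complex II. Complexes III and IV pass them on to oxygen, complexes I, III and IV pump protons, and complex V uses the proton gradient to make ATP. Complex II is built from nuclear genes alone, whereas the others combine subunits from both genomes. The mitochondrial genes are transcribed as long joined precursors that are cut into single messenger RNAs. Macrophages and microglia are known to shift between respiration and glycolysis when they are activated.

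Libraries held 13879062 to 18944051 counts. All 12 listed microglia and macrophage genes passed the filter, and their summed level was 2039 to 2086 RPM (reads scaled to the total of a library) in triol-treated, 2025 to 2103 in irradiated and 2624 to 2759 in control libraries. Markers of resting brain microglia were scarce, P2ry12 with 6 to 14 and Tmem119 with 16 to 26 counts per library. Listed neuron genes summed to 0.464 to 1.16 RPM in triol-treated, 0 to 0.138 RPM in irradiated and 0.0643 to 0.565 RPM in control libraries. For listed astrocyte genes the sums were 0.464 to 0.897, 0.138 to 0.865 and 0.0643 to 0.142 RPM in the same order.

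Several mitochondrial genes have a copy in the nuclear genome, and the sequences show how alike the copies are. A stretch of chromosome 1 holds 7 annotated pseudogenes of mitochondrial genes, side by side over 4663 bases from 24611535 to 24616197 (GRCm38, minus strand). The opening bases of mt-Co2, mt-Co3 and mt-Nd3, which encode subunits of complexes IV, IV and I, are shown beside those of their copies Gm28661, Gm28437 and Gm28438, 5′ to 3′, from the GENCODE M21 transcripts. Capitals mark the only base that differs within the 60 shown.
mt-Co2: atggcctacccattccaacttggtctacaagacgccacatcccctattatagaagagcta
Gm28661: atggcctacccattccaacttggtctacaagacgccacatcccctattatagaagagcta
mt-Co3: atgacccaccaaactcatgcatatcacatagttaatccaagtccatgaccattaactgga
Gm28437: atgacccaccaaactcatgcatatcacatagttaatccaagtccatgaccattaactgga
mt-Nd3: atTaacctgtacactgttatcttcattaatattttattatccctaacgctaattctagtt
Gm28438: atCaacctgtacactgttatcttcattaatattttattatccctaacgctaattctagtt
The difference between mt-Nd3 and its copy is T3C, counted from the start of the gene, with the mitochondrial base given before the position. Over 681 aligned bases, mt-Co2 (chrM:7013-7696) and Gm28661 (chr1:24614885-24615565) had 0 mismatches. Likewise mt-Atp6 had 0 over 678 bases with Gm10925, mt-Co3 had 0 over 783 with Gm28437, mt-Nd4l had 0 over 294 with Gm10222, and the first 876 of the 1378 bases of mt-Nd4 had 0 with Gm28439. The end of mt-Co1 matched Gm29216 at 98.78% of 492 bases.

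The share of a gene that also occurs elsewhere was measured as the percent of its 100-base windows found in a transcript of another gene. It was 99.5% for mt-Co2 and mt-Atp6, 99.9% for mt-Co3, 97.6% for mt-Nd3 and 98.5% for mt-Nd4l. It was 60.8% for mt-Nd4, 30.8% for mt-Co1, 3.19% for mt-Nd2 and 0% for mt-Nd1, mt-Nd5, mt-Nd6, mt-Cytb and mt-Atp8. By the order of the genes, mt-Atp8 would fall in a gap of 233 bases between Gm10925 and Gm28661 that no annotated transcript covers. The 5 genes over 90% and mt-Atp8 had 22 to 764 counts per library, whereas the other 7 had 9867 to 355582. Per kilobase of exons, the control level of those 6 genes was 7.08 to 62.1 CPM (counts scaled as RPM, with the TMM correction for library composition), that of the other 7 was 927 to 13241, and that of the 79 nuclear subunits tested was 0.782 to 359. The sources used here do not say how reads with several matches were counted, nor which strand setting was used. Whether the copies set these low counts was not tested, so the 6 genes are given as uncertain. The values of mt-Nd4 and mt-Co1, which share part of their length, are given as uncertain likewise.

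**Figure D1:**
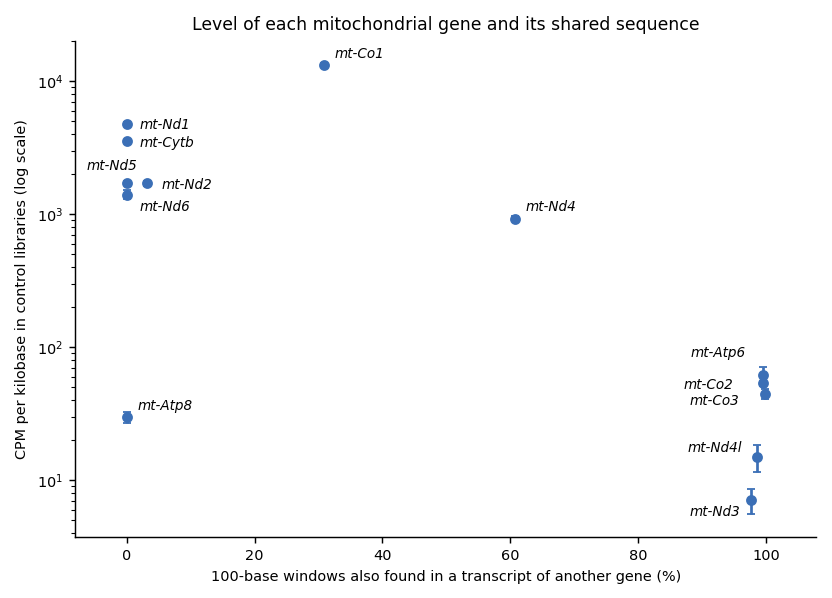
Control level of the 13 mitochondrial genes in CPM per kilobase (log axis; points are means and bars SD, n = 3) against the percent of their 100-base windows found in a transcript of another gene. The 5 genes on the right, with 97.6% to 99.9% of windows shared, and mt-Atp8 sit between 7.08 and 62.1 CPM per kilobase, and the other 7 between 927 and 13241.

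The first comparison, irradiated against control cells, asked what 10 Gy of X-rays changed. Mitochondrial genes held a smaller share of the counts after irradiation, 3.35%, 3.33% and 3.46% in irradiated and 3.54%, 3.49% and 3.64% in control libraries. The genes that fell were mt-Nd1 and mt-Cytb, which encode core subunits of complexes I and III, and mt-Co1, which encodes the catalytic subunit of complex IV. All 3 fell by 0.14 on the log2 scale. Of the 13 mitochondrial members 3 fell and 0 rose by the edgeR test at an adjusted p under 0.05, as by DESeq2 and limma-voom, and 3 had an unadjusted p under 0.05. Of all 11295 tested genes, 22.2% fell and 22.1% rose, and 5713 had an unadjusted p under 0.05. Reads are shares of a library, so less mitochondrial RNA and more of other RNA cannot be told apart. Nor can less RNA per cell and fewer cells with that RNA.

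mt-Cytb (chrM:14145-15288) had 3452, 3473 and 3591 CPM in triol-treated, 3647, 3596 and 3739.7 CPM in irradiated and 4062, 3971 and 4095 CPM in control cells. The libraries of the 3 groups did not overlap, with control highest and triol-treated lowest. The log2 fold change of irradiated against control cells was −0.14 (SE 0.03, adjusted p = 2.6e-05). mt-Nd1 (chrM:2751-3707) had 3959, 3874 and 3971 CPM in triol-treated, 4218, 3957 and 4297 CPM in irradiated and 4680.3, 4392 and 4676 CPM in control cells. Every irradiated library lay below every control library, with a log2 fold change of −0.14 (SE 0.03, adjusted p = 1.3e-04). mt-Co1 (chrM:5328-6872), the most abundant member per kilobase, had 18809.7, 18804 and 18668 CPM in triol-treated, 18379.6, 18571 and 18882 CPM in irradiated and 20102, 20114 and 21153 CPM in control cells. Both irradiated groups lay below all control libraries, and the log2 fold change of irradiated against control cells was −0.14 (SE 0.03, adjusted p = 3.6e-05).

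The other mitochondrial genes did not pass in this comparison. mt-Nd2 (chrM:3914-4951), a complex I subunit gene like all mt-Nd genes, had 1587, 1576 and 1599 CPM in triol-treated, 1674, 1682 and 1968 CPM in irradiated and 1754, 1717 and 1858 CPM in control cells. Irradiated replicate 3 stood above all other libraries, and without it the log2 fold change was −0.08 and passed (adjusted p = 0.035), against −0.00087 with it. mt-Nd4 (chrM:10167-11544) had 1207, 1112 and 1256 CPM in triol-treated, 1287, 1253 and 1293 CPM in irradiated and 1284, 1324 and 1225 CPM in control cells. mt-Nd5 (chrM:11742-13565) had 2926, 2779.6 and 3003 CPM in triol-treated, 3104, 3123 and 3262 CPM in irradiated and 3270.2, 3090.4 and 3078 CPM in control cells. mt-Nd6 (chrM:13552-14070), the only protein gene on the other strand of the mitochondrial genome, had 665, 635 and 683 CPM in triol-treated, 783, 704 and 768 CPM in irradiated and 793, 686 and 705 CPM in control cells. For these 3 the irradiated and control libraries overlapped, and the log2 fold changes reached at most 0.05, for mt-Nd6, with adjusted p of at least 0.54. Without control replicate 1 the value of mt-Nd6 was 0.11 (adjusted p = 0.017).

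Among the genes with few counts, mt-Co2 had 34.9, 30.8 and 25.4 CPM in triol-treated, 37.7, 40.6 and 40.4 CPM in irradiated and 34.9, 36.9 and 37.9 CPM in control cells. mt-Co3 (chrM:8607-9390) had 31.3, 30.4 and 22.1 CPM in triol-treated, 32.7, 33.3 and 34.8 CPM in irradiated and 31.8, 34.7 and 38.0 CPM in control cells. Both encode core subunits of complex IV, and both were lowest in triol replicate 3. mt-Atp6 (chrM:7927-8607), a proton channel subunit gene of complex V, had 39.2, 34.4 and 28.6 CPM in triol-treated, 36.1, 40.7 and 43.8 CPM in irradiated and 35.7, 43.7 and 47.6 CPM in control cells. mt-Atp8 (chrM:7766-7969), which overlaps it, had 5.78, 5.63 and 4.31 CPM in triol-treated, 4.51, 5.64 and 6.21 CPM in irradiated and 6.496, 5.38 and 6.25 CPM in control cells. The spread within groups was wide for both, and irradiated and control libraries overlapped. mt-Nd3 (chrM:9459-9806) had 2.20, 2.56 and 1.47 CPM in triol-treated, 1.504, 2.14 and 2.61 CPM in irradiated and 2.09, 2.23 and 3.06 CPM in control cells. mt-Nd4l (chrM:9877-10173) had 3.93, 2.85 and 4.73 CPM in triol-treated, 3.90, 5.21 and 4.25 CPM in irradiated and 4.98, 3.26 and 5.08 CPM in control cells. None of these 6 passed between irradiated and control cells, with log2 fold changes from −0.24 to 0.11 and SE of 0.08 to 0.25.

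**Figure D2:**
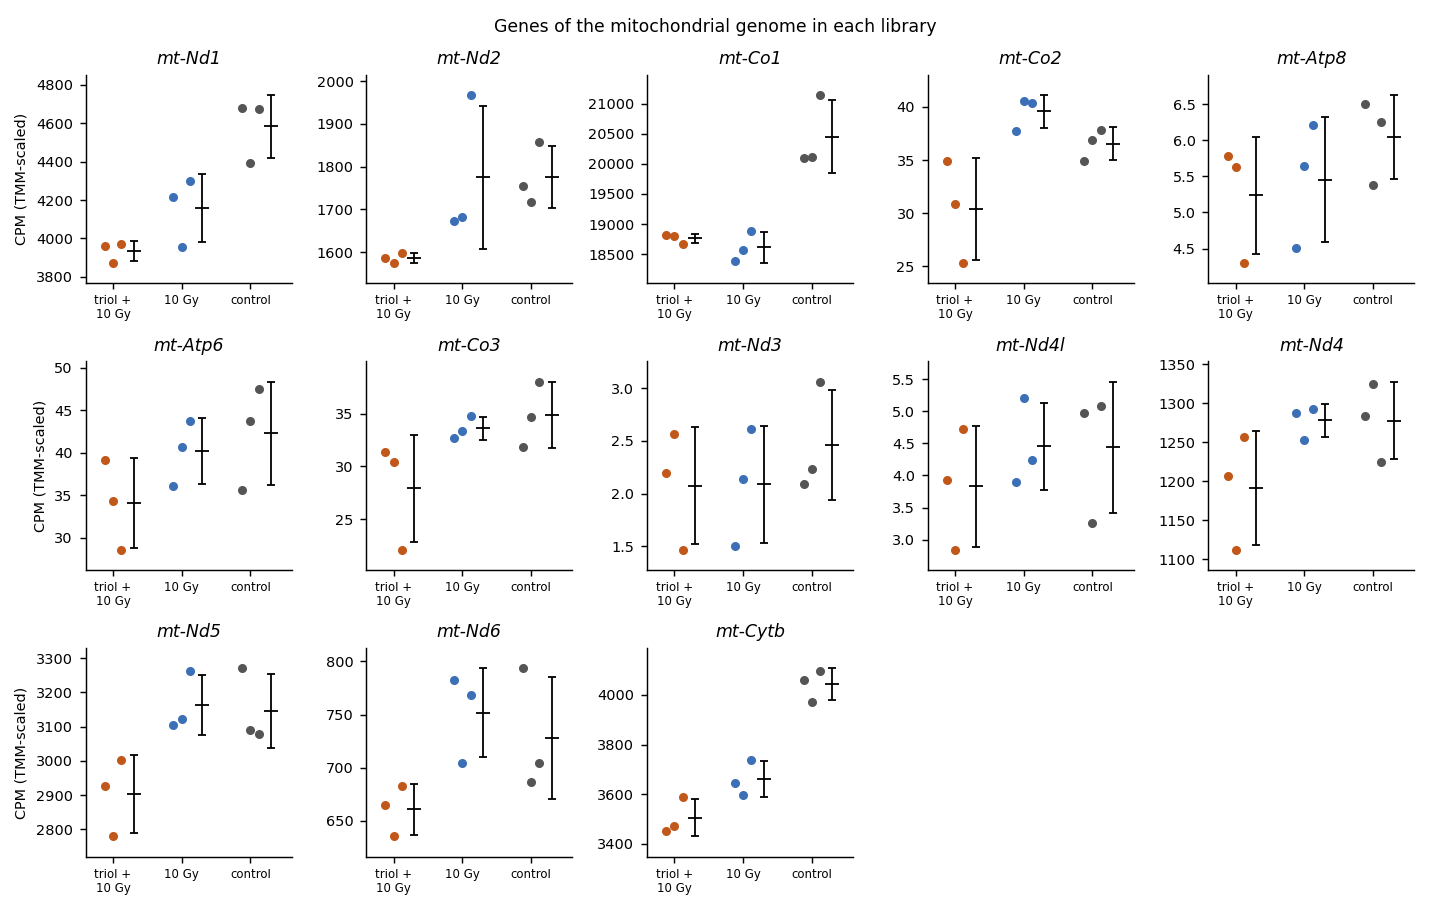
CPM after TMM scaling of the 13 mitochondrial genes in each library (points) with mean and SD (bars, n = 3), in triol-treated irradiated, irradiated and control cells; the axes do not start at 0. mt-Nd1, mt-Co1 and mt-Cytb are higher in all control libraries than in any other, and mt-Co2, mt-Co3 and mt-Atp6 are lowest in triol replicate 3.

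Of the 87 tested nuclear members 16 passed, or 18.4%, beside 44.3% of all tested genes. Of these 5 rose and 11 fell, and their median log2 fold change was 0.0082, beside 0.0067 over all tested genes. Complex II held 3 of the 11 that fell. Within it Sdhc, which encodes a membrane anchor of succinate dehydrogenase, and Sdhb, its iron-sulfur subunit, fell most. Sdhc (chr1:171127165-171150603) had 108, 106 and 109 CPM in triol-treated, 105, 110.1 and 114 CPM in irradiated and 137, 141 and 127 CPM in control cells. Both irradiated groups lay below the control libraries, with a log2 fold change of irradiated against control cells of −0.30 (SE 0.04, adjusted p = 1.7e-07). Sdhb (chr4:140961203-140979193) had 83.9, 79.6 and 75.9 CPM in triol-treated, 75.6, 82.0 and 81.3 CPM in irradiated and 95.2, 94.4 and 96.2 CPM in control cells, and its log2 fold change was −0.26 (SE 0.05, adjusted p = 1.3e-05). Sdha, the flavoprotein that binds succinate, had 429, 418 and 414 CPM in triol-treated, 407, 422 and 415 CPM in irradiated and 434, 432 and 442 CPM in control cells. Its fall was small, with a log2 fold change of −0.07 (SE 0.03, adjusted p = 0.044), and 8 of 17 alternative settings lost the call, among them leaving out control replicate 1 (adjusted p = 0.051), 2 (0.061) or 3 (0.080) and irradiated replicate 1 (0.13) or 3 (0.077). Sdhd, the other membrane anchor, had 164, 153 and 154 CPM in triol-treated, 155, 160.2 and 162 CPM in irradiated and 151, 156 and 151 CPM in control cells, and its log2 fold change of 0.06 (SE 0.04, adjusted p = 0.23) did not pass. The summed share of the 4 genes was 0.0788%, 0.0760% and 0.0757% of counts in triol-treated, 0.0750%, 0.0781% and 0.0778% in irradiated and 0.0802%, 0.0813% and 0.0806% in control libraries, and no irradiated library reached a control library.

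In complex I, 3 of 36 nuclear subunit genes fell and 0 rose. At an unadjusted p under 0.05 were 6 of the 36, beside 5713 of all 11295 tested genes. Of the 3 that fell, 2 are described here. Ndufv2, a core iron-sulfur subunit gene, had 67.0, 61.8 and 60.2 CPM in triol-treated, 64.6, 63.9 and 66.5 CPM in irradiated and 73.9, 69.3 and 71.1 CPM in control cells, for a log2 fold change of −0.13 (SE 0.05, adjusted p = 0.029). The accessory subunit gene Ndufa6 had 23.7, 24.9 and 26.1 CPM in triol-treated, 28.0, 27.1 and 26.3 CPM in irradiated and 32.4, 30.5 and 29.7 CPM in control cells, for a log2 fold change of −0.19 (SE 0.07, adjusted p = 0.030). Neither group pair overlapped, but leaving out single libraries ended both calls. For Ndufv2 these were control replicate 1 (adjusted p = 0.10), irradiated replicate 1 (0.061) and irradiated replicate 2 (0.071), and for Ndufa6 control replicate 1 (0.11), control replicate 2 (0.052), irradiated replicate 2 (0.055) and irradiated replicate 3 (0.10). DESeq2 and upper quartile scaling lost both as well, at 0.052 to 0.088.

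Of the 8 Ndufaf genes 1 rose and 1 fell, a share of 25% called beside 44.3% of all tested genes. Ndufaf4 had 17.9, 22.0 and 18.6 CPM in triol-treated, 22.0, 18.8 and 18.6 CPM in irradiated and 14.8, 12.8 and 18.1 CPM in control cells. Irradiated libraries were higher than all control libraries, with a log2 fold change of 0.39 (SE 0.11, adjusted p = 0.0031). Ndufaf8 had 6.36, 5.18 and 6.41 CPM in triol-treated, 6.36, 5.78 and 5.16 CPM in irradiated and 7.72, 7.21 and 9.71 CPM in control cells, lower in all irradiated libraries, with a log2 fold change of −0.51 (SE 0.14, adjusted p = 0.0037). Its call was lost without control replicate 3 (log2 −0.38, adjusted p = 0.0504), the highest of the 9.

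For complex III 0 of 8 nuclear genes passed by edgeR, and 0 had an unadjusted p under 0.05. Uqcrc1 and Uqcrc2, the core proteins, had log2 fold changes of −0.02 (95% interval −0.10 to 0.05) and 0.04 (−0.04 to 0.11). The Rieske iron-sulfur subunit gene Uqcrfs1 had 0.01 (−0.07 to 0.08). Cyc1, the cytochrome c1 gene of the same complex, which the name rule leaves out, fell (log2 fold change −0.14, SE 0.04, adjusted p = 0.0062).

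In complex IV 3 of 14 tested nuclear genes rose and 1 fell, a share of 28.6% called beside 44.3% of all tested genes. Cox5a, a subunit gene expressed in all tissues, had 60.5, 59.5 and 58.9 CPM in triol-treated, 62.8, 61.8 and 59.8 CPM in irradiated and 56.2, 52.0 and 55.2 CPM in control cells, with a log2 fold change of 0.18 (SE 0.05, adjusted p = 0.0057). Ndufa4, named for complex I but a subunit of complex IV, had 86.0, 84.5 and 84.0 CPM in triol-treated, 84.7, 86.0 and 88.3 CPM in irradiated and 79.1, 67.9 and 83.6 CPM in control cells, with a log2 fold change of 0.17 (SE 0.05, adjusted p = 0.0072). Cox7b had 117, 117 and 116 CPM in triol-treated, 131, 119 and 115 CPM in irradiated and 121, 105 and 107 CPM in control cells, with a log2 fold change of 0.13 (SE 0.05, adjusted p = 0.024). For Cox5a and Ndufa4 all irradiated libraries were above all control libraries, while for Cox7b they overlapped. Control replicate 2 was the lowest of the 9 libraries for these 3 genes. The gene that fell, Cox6a2, is the isoform of heart and skeletal muscle and was near the detection limit, with 21, 11 and 12 counts in triol-treated, 5, 7 and 13 in irradiated and 22, 23 and 21 in control libraries. Its log2 fold change was −1.30 (SE 0.38, adjusted p = 0.0052). Heart and skeletal muscle markers summed to 1.45 to 3.01 RPM in triol-treated, 1.66 to 2.49 RPM in irradiated and 0.395 to 1.22 RPM in control libraries. Of the 10 listed, 2 passed the filter and Myh7 had 0 counts throughout, so these sums are near the detection limit too. Their bearing on Cox6a2 was not tested.

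In complex V 1 of 17 tested nuclear genes rose and 3 fell, a share of 23.5% called beside 44.3% of all tested genes. Atp5d, the delta subunit gene of the rotating stalk, had 104, 92.6 and 94.6 CPM in triol-treated, 94.9, 98.2 and 94.95 CPM in irradiated and 113, 112 and 110.2 CPM in control cells, with a log2 fold change of −0.22 (SE 0.04, adjusted p = 8.0e-05). Every irradiated library lay below every control library. Atp5g2, one of the genes for subunit c of the proton-driven ring, had 72.5, 71.8 and 67.1 CPM in triol-treated, 69.8, 71.2 and 70.7 CPM in irradiated and 80.4, 79.1 and 75.9 CPM in control cells, with a log2 fold change of −0.15 (SE 0.05, adjusted p = 0.0083). Of its 100-base windows 34.7% occur in transcripts of other genes. Atp5h, a gene of the peripheral stalk, had 83.6, 84.3 and 79.9 CPM in triol-treated, 86.4, 79.3 and 76.9 CPM in irradiated and 89.1, 87.3 and 86.6 CPM in control cells, with a log2 fold change of −0.12 (SE 0.05, adjusted p = 0.041). Atp5j, for coupling factor 6 of the same stalk, had 86.6, 87.4 and 88.8 CPM in triol-treated, 98.1, 95.02 and 96.2 CPM in irradiated and 94.99, 84.0 and 87.6 CPM in control cells, with a log2 fold change of 0.12 (SE 0.05, adjusted p = 0.027), and it was the gene of complex V that rose. Atp5h was no longer called under 7 of 17 alternatives. Among them were leaving out control replicate 1 (adjusted p = 0.099) or 2 (0.071), leaving out irradiated replicate 2 (0.097) or 3 (0.22), and DESeq2 (0.073).

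Control replicate 2 bore on every nuclear member that rose. Without it 0 of the 5 stayed past the threshold: Cox5a had an adjusted p of 0.059, Ndufa4 0.21, Ndufaf4 0.051, Atp5j 0.23 and Cox7b 0.17. Without control replicate 1 the number of nuclear members that rose was 15. Atp5j was also lost without control replicate 3 (0.079), irradiated replicate 1 (0.095) or irradiated replicate 3 (0.055) and with DESeq2 (0.057), and Cox7b without control replicate 3 (0.12) or irradiated replicate 1 (0.27) and with DESeq2 (0.054). By contrast mt-Nd1, mt-Co1, mt-Cytb, Sdhb, Sdhc, Atp5d, Atp5g2 and Cox6a2 were among the members called under every alternative that was run.

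**Figure D3:**
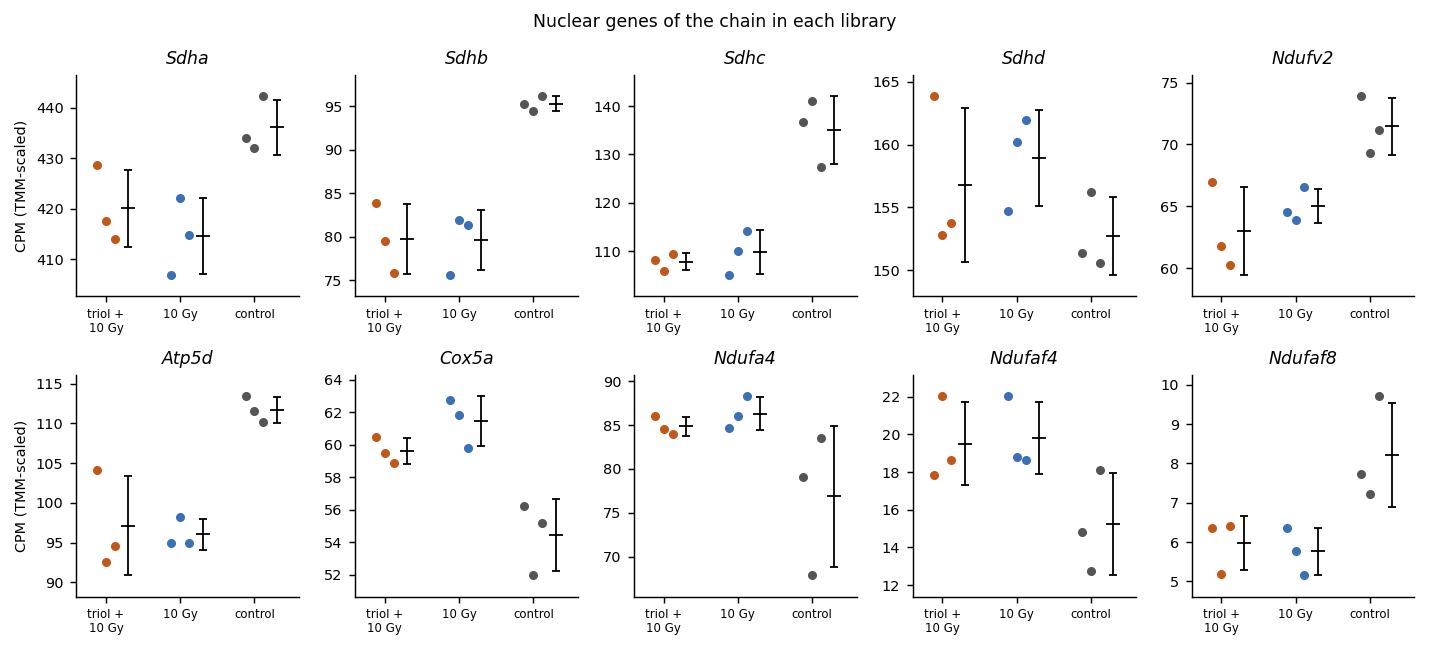
CPM after TMM scaling of 10 nuclear genes in each library (points) with mean and SD (bars, n = 3), in triol-treated irradiated, irradiated and control cells; the axes do not start at 0. Sdhb, Sdhc, Ndufv2 and Atp5d are lower in all libraries of both irradiated groups than in any control library, and Cox5a and Ndufa4 are higher.

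The second comparison, triol-treated against irradiated cells, asked what the steroid changed in irradiated cells. mt-Co2 fell and was the only member that passed by edgeR in this comparison. It is among the genes with few counts and an identical nuclear copy, and DESeq2 gave it no adjusted p. DESeq2 gave an adjusted p to 7 of the 13 mitochondrial genes and called 1, mt-Nd5, while limma-voom called 3. Of the 13 mitochondrial genes 1 fell and 0 rose by edgeR, 8 had an unadjusted p under 0.05, and 12 had a log2 fold change below 0. Over all 11295 tested genes 0.00885% fell, which is mt-Co2 itself, and 0.0974% rose. Of the 11295, 865 had an unadjusted p under 0.05, and 49.2% had a log2 fold change below 0. For 6 of the 13, every triol-treated library lay below every irradiated one, beside 5.88% of all tested genes that lay lower and 7.35% that lay higher in this way.

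The log2 fold change of mt-Co2 was −0.39 (SE 0.08, adjusted p = 0.020), with 30.4 ± 4.79 CPM in triol-treated and 39.6 ± 1.57 CPM in irradiated cells (mean ± SD, n = 3). The call was lost without irradiated replicate 2 (adjusted p = 0.12), irradiated replicate 3 (0.19), triol replicate 2 (0.098) or triol replicate 3 (log2 −0.27, adjusted p = 0.24). Triol replicate 3 was the lowest library for mt-Co2, mt-Co3 and mt-Atp6 alike, with 483, 421 and 545 counts. By CPM it was also the lowest for mt-Atp8 and mt-Nd3, but not for mt-Nd4l. Within the triol group its values were the highest for mt-Nd1, mt-Nd2, mt-Nd4, mt-Nd5, mt-Nd6 and mt-Cytb, and the lowest for mt-Co1. mt-Co3 and mt-Atp6 had log2 fold changes of −0.27 (adjusted p = 0.48) and −0.24 (adjusted p = 0.74).

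Of the 7 genes with many counts 0 passed by edgeR and 6 had an unadjusted p under 0.05. mt-Nd5 came closest, with all triol-treated libraries below all irradiated ones and a log2 fold change of −0.12 (SE 0.03, adjusted p = 0.092). It passed under 7 of the alternative settings, among them DESeq2 (0.040), limma-voom (0.030) and leaving out control replicate 1 (0.037) or control replicate 3 (0.025). mt-Nd6, with a log2 fold change of −0.19 (SE 0.06, adjusted p = 0.41), passed under 5, among them limma-voom (0.030), but not with DESeq2. The log2 fold changes of mt-Nd1, mt-Nd2, mt-Nd4 and mt-Cytb were −0.08, −0.16, −0.10 and −0.06, with adjusted p of 0.37 to 0.58. mt-Co1 stood apart from them, at 0.01 (95% interval −0.04 to 0.06).

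Listed hepatocyte genes other than Hp, the haptoglobin gene, were higher as a sum in triol-treated libraries than in the others, while Hp held most of the reads of the list. Without Hp, a split made after the values were seen, the other 14 listed genes in the table summed to 10.6, 10.5 and 10.3 RPM in triol-treated, 2.90, 2.09 and 1.12 RPM in irradiated and 1.13, 2.598 and 1.16 RPM in control libraries. Every triol-treated library lay above every other library. Hp alone had 21.9, 23.7 and 24.9 RPM in triol-treated, 25.3, 29.3 and 26.9 RPM in irradiated and 22.7, 23.9 and 21.2 RPM in control libraries, and with it the 15 summed to 32.5 to 35.2 RPM in triol-treated, 28.0 to 31.3 RPM in irradiated and 22.4 to 26.5 RPM in control libraries. Alb, for serum albumin, had 61, 65 and 82 counts in triol-treated, 24, 11 and 2 in irradiated and 4, 11 and 6 in control libraries, with a log2 fold change of triol-treated against irradiated cells of 2.18 (SE 0.33, adjusted p = 5.8e-04). Serpina1e had 24, 20 and 14 counts in triol-treated and 0, 0 and 2 in irradiated libraries (adjusted p = 8.8e-04), and Serpina3k had 26, 37 and 19 in triol-treated and 1, 0 and 0 in irradiated libraries (adjusted p = 3.5e-05). These 3 are among the 11 genes of the whole table that rose in this comparison, and they were also called against control. Of the 15 genes 5 passed the filter and none was at 0 in every library. Their part in the values of the respiratory chain genes was not tested.

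Of 87 tested nuclear members 0 passed by edgeR, by DESeq2 (22 with an adjusted p) or by limma-voom. By edgeR 10 of them had an unadjusted p under 0.05, beside 865 of all 11295 tested genes. The median log2 fold change of the 87 was −0.033, beside −0.12 for the mitochondrial genes and 0.0016 for all tested genes. Of the 87, 72.4% were below 0, beside 49.2% of all tested genes. Triol-treated libraries lay below irradiated ones without overlap for 14 of 87, or 16.1%, and above them for 3. The nuclear member with the smallest p was Atp5j, at −0.14 (SE 0.04, adjusted p = 0.35). It was followed by the small complex III gene Uqcr11, at −0.27 (SE 0.09, adjusted p = 0.37), the complex I accessory gene Ndufv3, at −0.20 (SE 0.07, adjusted p = 0.41), and the complex IV gene Cox4i1, at −0.09 (SE 0.04, adjusted p = 0.48). The 2 groups were apart for Atp5j, Ndufv3 and Cox4i1 and overlapped for Uqcr11.

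Transcript length moved with this shift, by a split made after the values were seen. The 18 nuclear members whose main coding transcript has at most 600 bases had a median log2 fold change of −0.079, beside −0.026 for the 69 longer ones. Over all tested genes the medians were −0.071 for 133 short and 0.0020 for 11156 longer genes. In irradiated against control cells the medians were 0.031 for the short and 0.0054 for the longer members, and 0.137 for the short and 0.0051 for the longer of all tested genes. The short members also differed between replicates of a group, with median deviations from the group mean of −0.026, 0.024 and 0.023 in triol replicates 1, 2 and 3, of 0.15, 0.018 and −0.11 in the irradiated and of 0.13, −0.077 and −0.090 in the control replicates. The part of transcript length in the nuclear values of either comparison was not tested.

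**Figure D4:**
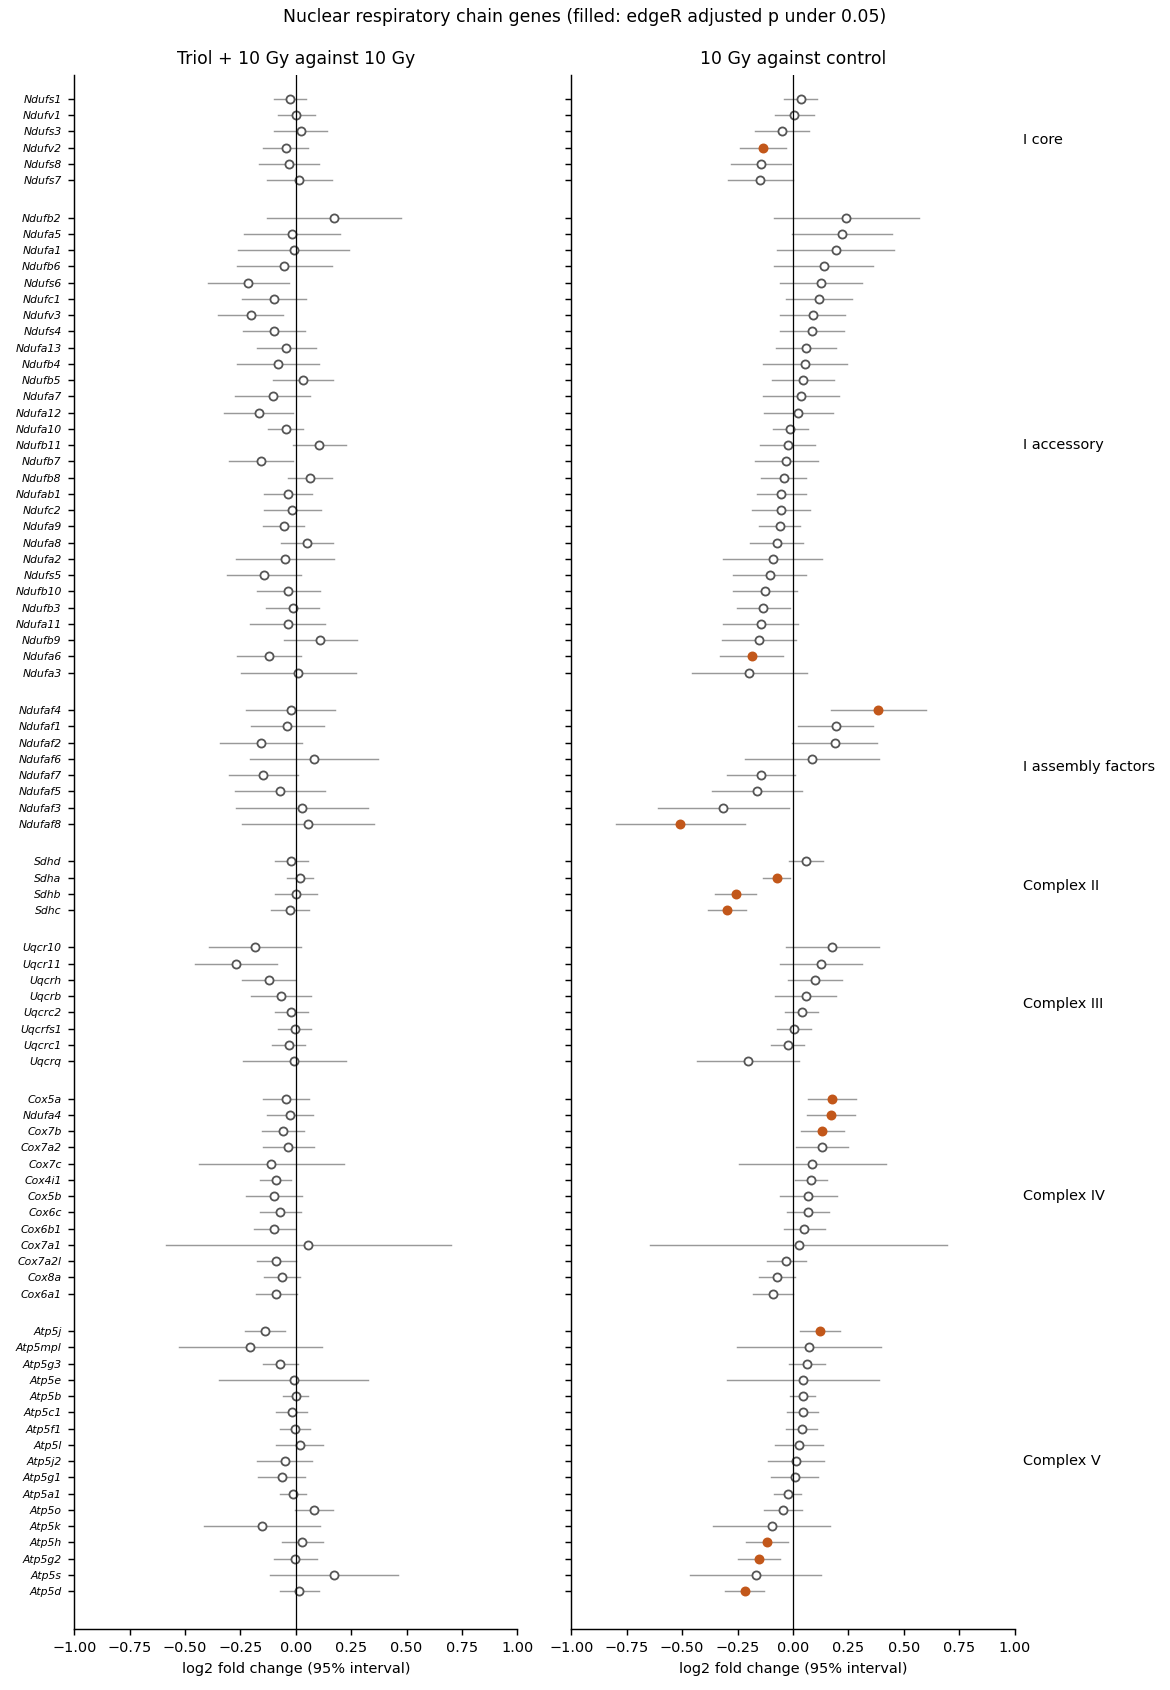
Log2 fold changes with 95% intervals of 85 nuclear members by complex, for triol-treated irradiated against irradiated cells (left) and irradiated against control cells (right); filled points passed at an edgeR adjusted p under 0.05, and Cox6a2, whose interval runs off the axis, is left out. On the left 0 points are filled, and on the right 3 of 4 complex II genes and the core gene Ndufv2 are filled and lie below 0, while complex III has 0 filled points.

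The third comparison set triol-treated irradiated cells against control cells, and shares its libraries with the others. Here 8 of 13 mitochondrial genes fell and 0 rose by edgeR, beside 21.7% of all tested genes that fell and 21.5% that rose. At an unadjusted p under 0.05 were 10 of the 13, beside 5628 of all 11295 tested genes. DESeq2 called 6 and limma-voom 10, all lower. The genes that fell were mt-Nd1 (−0.22), mt-Cytb (−0.21), mt-Co1 (−0.12), mt-Nd5 (−0.12), mt-Nd4 (−0.10), mt-Nd2 (−0.16), mt-Co2 (−0.27) and mt-Co3 (−0.33). The smallest adjusted p was 3.0e-08, for mt-Cytb, and the highest was 0.049, for mt-Nd2. mt-Nd2 lost its call under 7 of 17 alternatives. Among them were leaving out control replicate 1 (adjusted p = 0.059) or 3 (0.15), and triol replicate 1 (0.087), 2 (0.099) or 3 (0.074). mt-Nd4 lost its call under 3 of 17, among them leaving out control replicate 2 (0.095) or triol replicate 2 (0.17). mt-Co2 lost it only without triol replicate 3 (0.081). mt-Co3 lost it under 2 of 17, at 0.061 at most, among them leaving out triol replicate 3 (0.052).

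Of 87 nuclear members 4 rose and 18 fell, a share of 25.3% beside 43.3% of all tested genes. Sdhc (−0.33), Sdhb (−0.26), Atp5d (−0.20), Atp5g2 (−0.16), Ndufa6 (−0.31) and Ndufv2 (−0.18) fell here too. In complex I, the core gene Ndufs8 (−0.18 (SE 0.07, adjusted p = 0.027)) and the accessory genes Ndufs5 (−0.25 (SE 0.08, adjusted p = 0.011)) and Ndufb7 (−0.19 (SE 0.07, adjusted p = 0.029)) also fell, and the accessory gene Ndufb2 rose, with 5.72, 6.26 and 5.72 CPM in triol-treated and 3.61, 4.64 and 4.95 CPM in control libraries (log2 fold change 0.41 (SE 0.15, adjusted p = 0.026)). In complex IV, Cox6a1 (−0.18 (SE 0.04, adjusted p = 0.0012)), Cox8a (−0.13 (SE 0.04, adjusted p = 0.0058)) and the supercomplex factor gene Cox7a2l (−0.12 (SE 0.04, adjusted p = 0.025)) fell. Ndufaf4 (0.36 (SE 0.10, adjusted p = 0.0043)), Cox5a (0.13 (SE 0.05, adjusted p = 0.034)) and Ndufa4 (0.15 (SE 0.05, adjusted p = 0.020)) rose. Among the other Ndufaf genes, Ndufaf8 (−0.45 (SE 0.14, adjusted p = 0.0070)), Ndufaf5 (−0.23 (SE 0.10, adjusted p = 0.050)) and Ndufaf7 (−0.29 (SE 0.08, adjusted p = 0.0016)) fell. For complex III 0 of 8 genes passed, and 0 had an unadjusted p under 0.05.

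Many of the smaller nuclear calls against control rested on single libraries, by the same edgeR test. Without triol replicate 2 all 4 members that rose lost their call, as did Ndufs8, Ndufb7 and Ndufaf5, at adjusted p of 0.052 for Ndufa4 to 0.10 for Ndufs8. Leaving out triol replicate 3 ended the calls of Cox5a, Ndufs5, Ndufs8, Ndufb7 and Ndufaf5 (0.060 to 0.15), and leaving out triol replicate 1 those of Cox5a, Ndufa4, Cox7a2l and Ndufaf5 (0.057 to 0.12). Of the controls, replicate 1 bore on Cox7a2l, Cox8a, Ndufb2, Ndufb7, Ndufs5 and Ndufaf5 (0.058 to 0.17 without it), replicate 2 on Cox5a, Ndufa4, Ndufaf4, Ndufaf5 and Ndufs8 (0.077 to 0.43), and replicate 3 on Cox5a and Ndufaf8 (0.055 and 0.082). Without irradiated replicate 2, which enters only through the shared spread, Cox5a stood at 0.055.

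Several subunits of complex IV, and subunit c of complex V, have isoform genes that are used in different tissues. Per kilobase of exons, the ubiquitous Cox4i1 averaged 198 ± 1.97 CPM per kilobase in triol-treated, 211 ± 7.57 in irradiated and 199.7 ± 11.8 in control cells. Its partner Cox4i2, a lung isoform, had 1 to 4 counts in any library. The liver-type Cox6a1 averaged 134 ± 5.25 CPM per kilobase in triol-treated, 143 ± 7.18 in irradiated and 152 ± 7.17 in control cells, and the muscle-type Cox6a2 1.21 ± 0.497 CPM per kilobase in triol-treated, 0.829 ± 0.382 in irradiated and 2.09 ± 0.212 in control cells. In the same way Cox7a2 averaged 56.4 ± 4.13 CPM per kilobase in triol-treated, 57.6 ± 1.73 in irradiated and 52.6 ± 0.923 in control cells, Cox7a2l 64.4 ± 0.730 CPM per kilobase in triol-treated, 68.5 ± 2.37 in irradiated and 69.9 ± 3.57 in control cells and the muscle-type Cox7a1 2.08 ± 0.324 CPM per kilobase in triol-treated, 1.997 ± 0.205 in irradiated and 1.96 ± 0.117 in control cells. Cox8a averaged 273 ± 2.59 CPM per kilobase in triol-treated, 285 ± 11.9 in irradiated and 299.9 ± 20.9 in control cells, the muscle-type Cox8b had 0 to 2 counts and the testis-type Cox8c 0 counts in every library.

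Cox6b1 averaged 106 ± 1.22 CPM per kilobase in triol-treated, 114 ± 5.37 in irradiated and 109.6 ± 1.89 in control cells, against 0 or 1 count per library for its testis partner Cox6b2. Cox7b had 96.3, 96.7 and 95.3 CPM per kilobase in the triol-treated libraries, 108, 97.6 and 94.6 in the irradiated and 99.8, 86.7 and 87.9 in the control libraries, and its testis partner Cox7b2 had 0 counts throughout. Ndufa4 averaged 61.4 ± 0.768 CPM per kilobase in triol-treated, 62.5 ± 1.33 in irradiated and 55.7 ± 5.85 in control cells, while Ndufa4l2, a hypoxia-induced relative, had 0 or 1 count. Of the genes for subunit c, Atp5g3 averaged 69.7 ± 3.38 CPM per kilobase in triol-treated, 73.1 ± 2.65 in irradiated and 69.9 ± 2.56 in control cells. Atp5g2 averaged 42.1 ± 1.76 CPM per kilobase in triol-treated, 42.1 ± 0.412 in irradiated and 46.9 ± 1.39 in control cells, and Atp5g1 11.3 ± 0.291 CPM per kilobase in triol-treated, 11.8 ± 0.323 in irradiated and 11.8 ± 0.426 in control cells. Per kilobase, the levels of these 3 genes did not overlap in any library. The exon length that each was divided by was 2181 bases for Atp5g3, 1675 for Atp5g2 and 4912 for Atp5g1. The gaps between these levels therefore rest in part on the lengths. Testis markers summed to at most 0.321 RPM in any library, with Prm2, Tnp2 and Pgk2 at 0 counts.

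Set against each other by complex, mitochondrial reads made up 3.29%, 3.25% and 3.30% of counts in triol-treated, 3.35%, 3.33% and 3.46% in irradiated and 3.54%, 3.49% and 3.64% in control libraries. The 3 groups did not overlap. mt-Co1 alone held 56.8% to 58.1% of the mitochondrial reads in triol-treated, 55.0% to 56.3% in irradiated and 55.7% to 57.3% in control libraries. Nuclear subunit genes held 0.820% to 0.844% of counts in triol-treated, 0.845% to 0.856% in irradiated and 0.820% to 0.846% in control libraries. The log2 ratio of mitochondrial to nuclear subunit reads was 1.96, 1.98 and 2.01 in triol-treated, 1.99, 1.96 and 2.03 in irradiated and 2.06, 2.07 and 2.15 in control libraries. Both irradiated groups were below control without overlap, by a mean of −0.10 for irradiated and −0.11 for triol-treated cells, and they overlapped each other. No test was run on these sums.

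The complexes did not share one pattern. In complex III the ratio was 2.09, 2.11 and 2.17 in triol-treated, 2.12, 2.12 and 2.17 in irradiated and 2.26, 2.27 and 2.36 in control libraries, so both irradiated groups lay below control. In complex I it was 2.64, 2.62 and 2.73 in triol-treated, 2.74, 2.69 and 2.82 in irradiated and 2.76, 2.71 and 2.79 in control libraries, with overlap between all groups. In complex IV, where mt-Co1 sets the mitochondrial sum, it was 3.838, 3.839 and 3.842 in triol-treated, 3.69, 3.74 and 3.83 in irradiated and 3.83, 3.95 and 4.04 in control libraries. Triol-treated cells lay above irradiated ones there by a mean of 0.086. The mitochondrial share of complex IV overlapped, at 1.88% to 1.90% of counts in triol-treated and 1.86% to 1.91% in irradiated libraries. Its nuclear share did not, at 0.131% to 0.133% in triol-treated and 0.134% to 0.144% in irradiated libraries. With mt-Co1 left out, a setting chosen after seeing the data, the difference was −0.27. That setting leaves only mt-Co2 and mt-Co3, both among the scarce genes given as uncertain. In complex V, whose mitochondrial genes are among those with few counts, all groups overlapped, from −6.82 to −6.12.

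**Figure D5:**
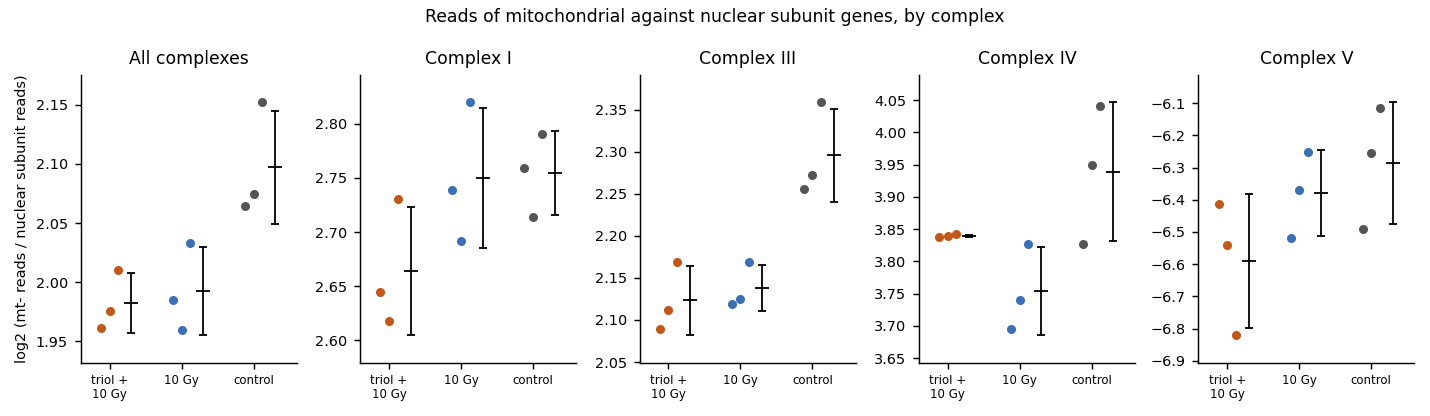
Log2 ratio of reads on mitochondrial genes to reads on nuclear subunit genes, over all complexes and per complex, in each library (points) with mean and SD (bars, n = 3), in triol-treated irradiated, irradiated and control cells. Over all complexes and in complex III the control libraries lie above both irradiated groups, and in complex IV the triol-treated libraries, at 3.84, lie just above the irradiated ones.

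Other genes of the pathway came from lists outside the name rule. Over the 84 tested, 26 rose (31.0%) and 6 fell (7.14%) by edgeR in irradiated against control cells, beside 22.1% and 22.2% of all tested genes. Of 16 genes for the upkeep and transcription of mitochondrial DNA 5 rose (31.2%) and 0 fell, with a median log2 fold change of 0.12. They were Tfam, the factor that packs mitochondrial DNA and starts its transcription (0.26, SE 0.06), the helicase gene Twnk (0.14), the single-strand binding protein gene Ssbp1 (0.17), and the scarce Mterf1a (0.79) and Mterf2 (0.96). Of 16 genes for processing and stability of mitochondrial RNA 7 rose (43.8%) and 2 fell (12.5%), with a median of 0.14. Pnpt1, an exoribonuclease (0.38, SE 0.04), Trmt10c, a subunit of mitochondrial RNase P (0.30), and Lrpprc, which stabilises the messengers (0.17), were among those that rose, and Fastk (−0.49) and Angel2 (−0.22) fell.

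Of 37 tested assembly factor genes outside the rule 8 rose and 2 fell, or 21.6% and 5.41%, so the share that rose was near that of all tested genes. Coa7 (0.50), the copper chaperone gene Sco1 (0.32) and the haem A synthase gene Cox15 (0.20) rose, and the copper chaperone gene Cox17 (−0.31) and the complex III factor gene Bcs1l (−0.18) fell. Among 4 tested electron carriers and donors, Cycs, for cytochrome c (0.20, SE 0.04), and Etfdh (0.14) rose. Of 10 tested nuclear regulators 4 rose, Sirt1 (0.21), Yy1 (0.13), Gabpb2 (0.13) and Pprc1 (0.12), and Esrra fell (−0.22), while Ppargc1a had too few counts for the test. Between triol-treated and irradiated cells 0 of the 84 passed by edgeR, by DESeq2 (11 with an adjusted p) or by limma-voom. By edgeR 7 of the 84 had an unadjusted p under 0.05, beside 865 of all 11295 tested genes.

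In triol-treated against control cells 20 of the 84 rose (23.8%) and 9 fell (10.7%), beside 21.5% and 21.7% of all tested genes. Of the 16 genes for upkeep and transcription of mitochondrial DNA 1 rose, Tfam (0.16, SE 0.06, adjusted p = 0.022), and 1 fell, the mitochondrial RNA polymerase gene Polrmt (−0.19, SE 0.07, adjusted p = 0.031). Twnk (0.09), Ssbp1 (0.12), Mterf1a (0.21) and Mterf2 (0.63) did not pass there. Of the RNA processing genes 6 rose and 2 fell, of the assembly factor genes 8 and 4, of the regulators 3 and 1, and of the electron carriers 2 and 0. A call in one of these comparisons and not in the other does not show that they differ.

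Promoters of nuclear members were searched for motifs of factors known to regulate respiratory chain genes. RefSeq promoters (GRCm38.p6, 250 bases before to 50 after the start) were found for 74 of 93 nuclear symbols. The NRF1 motif GCGCATGC, or GCATGCGC on the other strand, stood in 12 of 74, or 16.2%, beside 3.05% of 27025 genes. Its longer form, in capitals in the Atp5g2 and Ndufaf4 lines and holding the short one, stood in 7, or 9.46%, beside 1.07%. The ETS motif ACTTCCGG, or CCGGAAGT, bound by GABPA, stood in 5, or 6.76%, beside 4.31%. The YY1 motif, in capitals in the Atp5j line and searched on both strands, stood in 6, or 8.11%, beside 0.995%. Ndufaf8, with the YY1 motif, and Atp5h, with the ETS motif, fell in irradiated against control cells and are not shown. The promoter parts of 5 other members called in that comparison are shown with the motif in capitals, 3 that fell (Sdhb, Atp5g2 and Ndufa6) and 2 that rose (Ndufaf4 and Atp5j).
Sdhb: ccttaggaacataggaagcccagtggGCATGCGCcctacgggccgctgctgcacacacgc
Atp5g2: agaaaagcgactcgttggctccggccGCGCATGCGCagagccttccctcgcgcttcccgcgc
Ndufa6: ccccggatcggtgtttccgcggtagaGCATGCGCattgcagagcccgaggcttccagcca
Ndufaf4: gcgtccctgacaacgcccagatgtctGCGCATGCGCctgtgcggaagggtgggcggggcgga
Atp5j: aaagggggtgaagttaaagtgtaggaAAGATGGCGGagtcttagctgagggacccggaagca
In the order shown, these lie at chr4:140961191-140961250 (plus strand), chr15:102671054-102671115 (minus), chr15:82354341-82354400 (minus), chr4:24897944-24898005 (plus) and chr16:84835029-84835090 (minus). Of the 5 members that rose, Ndufaf4 alone held the NRF1 motif in this window, and its call was lost without control replicate 2. Of the 11 nuclear members that fell, Sdhb, Atp5g2 and Ndufa6 held the NRF1 motif. A match describes these letters only, and binding was not measured.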

How the data were processed

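RNA was measured in 9 libraries, 3 per group, made with the NEBNext Ultra RNA kit from Trizol-extracted total RNA, per the labels' protocols. The authors deposited whole-number counts of reads per gene, without normalisation. They ran STAR 2.7.1a and the featureCounts program (Subread 1.6.3) on GRCm38, with fastp 0.18.0 and FastQC, per the submitters' processing notes. Neither these nor the labels give the annotation release, the strand setting or the handling of multi-mapping reads. Each of the 21951 gene identifiers occurs in GENCODE M21, which gave positions, exon lengths and shared sequence. Promoters are from RefSeq (GRCm38.p6).

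Groups were read from the titles. filterByExpr kept 11295 genes, while 5222 genes had no count at all. Comparisons used the edgeR quasi-likelihood F test, version 4.0.16 (R 4.3.3, TMM, robust, 1 fit over 9 libraries, 6 residual degrees of freedom), two-sided, with Benjamini-Hochberg adjustment over all tested genes. The threshold was 0.05. Where no other tool is given beside it, an adjusted p is from edgeR, and SE is the standard error of a log2 fold change. The biological coefficient of variation was 3.18%. CPM is scaled by TMM, and RPM and percents are shares of a library's total. Levels per kilobase were divided by the merged length of all annotated exons of a gene. They therefore depend on the annotation when genes are ranked against each other. Intervals are 95%. Scripts were tested on simulated data. Alternatives included upper quartile and RLE scaling, no filter, DESeq2 1.42.0, limma-voom (limma 3.58.1), a replicate block and leaving out each library.

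Named genes were every mitochondrial member, Sdha to Sdhd, the isoform sets, up to 3 called members each way per complex against control, and in triol-treated against irradiated cells every called member and the 4 nuclear members with the smallest p. Values of other complex III genes, and the reported pathway genes, were picked after their values were seen. Members and lists were chosen with earlier results of these data known, so no test was run on a list. The values of 1 nuclear member are not reported here, though counts over members include it.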

Additional observations from a re-analysis of the deposited data

How the results depend on the processing

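Replicate numbers did not pair the libraries, with correlations of same-numbered deviations between −0.05 and 0.04. With the replicate block, 17 genes rose and 5 fell in triol-treated against irradiated cells, 4 of the 5 mitochondrial, against 11, 1 and 1 without it. The other counts given here for that comparison were 7 up with upper quartile scaling, 27 up and 9 down with no low-count filter, 18 up with DESeq2, 3 down with limma-voom and 7 down with the 2 groups fitted alone. Of these, 5 mitochondrial genes fell without a filter, 3 with limma-voom and 3 with 2 groups alone. Leaving out the 6 genes with few counts, a choice made after seeing the data, was done for the main edgeR calls only. It removed mt-Co2, the only member called there, so it tells nothing about the other settings. Leaving out single libraries gave 6 to 16 up, 0 to 7 down and 0 to 3 mitochondrial genes down.

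In irradiated against control cells, 9 nuclear members rose and 7 fell with upper quartile scaling, and 3 rose with DESeq2. Leaving out single libraries gave 0 to 15 nuclear members up, 8 to 15 down, 0 to 1 mitochondrial genes up and 3 to 4 down. In triol-treated against control cells, 2 nuclear members rose with DESeq2, and leaving out libraries gave 0 to 7 up and 12 to 24 down.

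Sums depended on mt-Co1. The log2 difference of summed mitochondrial reads, irradiated against control, was −0.074, and −0.11 with TMM, −0.10 per kilobase and −0.038 without mt-Co1. For triol-treated against irradiated cells it was −0.043, and −0.14 as a mean over genes and −0.11 without mt-Co1. For triol-treated against control cells it was −0.12, and −0.146 with TMM, −0.15 per kilobase, −0.20 as a mean over genes and −0.15 without mt-Co1. The mitochondrial to nuclear ratio over all complexes, irradiated against control, was −0.035 as a mean over genes, and the complex IV ratio was −0.016 that way and −0.013 without mt-Co1. In triol-treated against irradiated cells the ratio over all complexes was −0.11 as a mean over genes and −0.075 without mt-Co1, that of complex III was 0.023 as a mean over genes, and that of complex IV −0.18 and −0.27. In triol-treated against control cells the complex IV ratio was −0.20 and −0.28. Without mt-Co1 the mitochondrial side of complex IV is only mt-Co2 and mt-Co3, which are scarce and given as uncertain. The cause of these shifts was not tested beyond leaving out mt-Co1.

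Of the named genes called, 9 of 19 in irradiated against control cells, 0 of 1 in triol-treated against irradiated cells and 13 of 28 in triol-treated against control cells kept their call in every alternative, and 0 changed sign while called. Of those not called, 6, 4 and 5 gained a call in at least 1 alternative. The 6 scarce mitochondrial genes had only 22 to 764 counts per library. How far low counts and the spread between libraries each limit the calls of the 13 genes was not tested.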
